A study of Mus musculus with 6 samples.

Results

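The leukotriene and prostaglandin genes Alox5, Alox5ap, Lta4h, Ltc4s, Ptger2 and Ptger4 were examined in the RNA-Seq profiles of germinal center (GC) B cells and naive B cells, both from the Peyer's patches of mice. These are 6 of the 39179 genes with a value, found by the Ensembl identifier of each symbol. They were put together by pathway with earlier results of these data known, so their p-values are not independent of those results. Alox5ap was chosen by its measured drop in the GC pools, and its difference between the populations is described here without a test. GC B cells (Fas+GL7+) and naive, or resting, B cells (Fas-GL7-) had been sorted from the same organ of WT C57BL/6 females aged 12 weeks, with 3 pools of littermate mice in each population. A pool averages over its animals, so the spread between mice was not measured. Values are transcripts per 1000000 (TPM), which are corrected for transcript length.

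Leukotrienes and prostaglandins are short-lived lipids made from arachidonic acid, which phospholipases release from membranes. Alox5 encodes 5-lipoxygenase, the enzyme that begins leukotriene synthesis, and Alox5ap encodes FLAP, the membrane protein that presents arachidonic acid to it. The product, leukotriene A4, is turned into the chemoattractant leukotriene B4 by the hydrolase Lta4h, or joined to glutathione by the synthase Ltc4s to give the cysteinyl leukotrienes. Ptger2 and Ptger4 encode EP2 and EP4, receptors for prostaglandin E2 that couple to Gs and raise cAMP, a signal known to restrain lymphocyte activation.

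The members ranged from absent to moderately expressed, and their order differed between the populations. In GC B cells Lta4h led with 42.6 ± 3.14 TPM (SD, n = 3), followed by Ltc4s with 2.80 ± 0.982 TPM and Ptger4 with 1.59 ± 0.527 TPM (SD, n = 3 for each). Alox5ap, Ptger2 and Alox5 were each under 1 TPM in every GC pool, and among neighbours in this order only Alox5ap and Ptger2 overlapped between pools. In naive B cells Alox5ap led with 87.6 ± 49.4 TPM (SD, n = 3), above Lta4h with 37.9 ± 0.782 TPM and Ptger4 with 14.5 ± 0.678 TPM (SD, n = 3 for each). Ltc4s and Ptger2 followed and overlapped each other, and Alox5 was again last. In bulk samples such as these, fewer cells that express a gene and less RNA per cell cannot be told apart. The plot of the 6 genes by pool shows these levels.

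**Figure D1:**
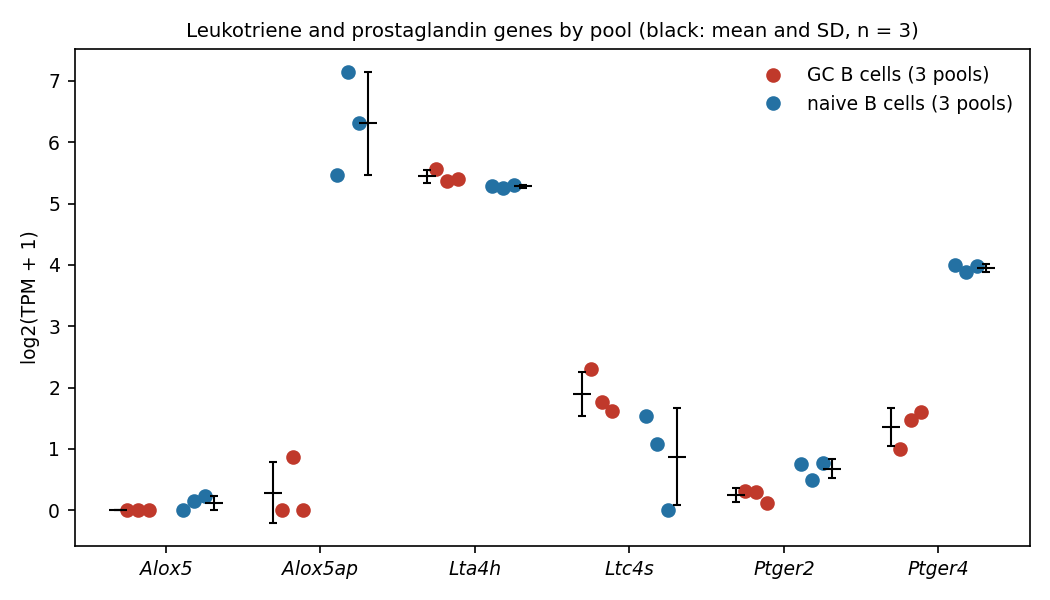
Level of each member on the log2(TPM + 1) axis in 3 GC pools (red) and 3 naive pools (blue), with the mean and SD of each population in black (n = 3). Alox5ap and Ptger4 stand lower in GC B cells, Lta4h has means of 5.44 in GC and 5.28 in naive B cells, and Alox5 lies at or near 0 throughout.

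The sequences upstream of the start site are shown for Ptger4, the member with a called difference, for Lta4h, which was expressed in both populations, and for Alox5, which was barely detected in either. Each is the 250 bases before the annotated start in RefSeq (GRCm38.p6), from a table of promoters in which 5 of the 6 members were matched, printed 5′ to 3′ on the strand of the gene. Capitals mark each match on either strand to one of the motifs searched. The first motif is spelled GGGCGG and is known as the GC box. The other, the CCAAT box, is spelled as its name. The Ptger4 window lies at chr15:5244188-5244437 on the minus strand, the Lta4h window at chr10:93453146-93453395 on the plus strand, and the Alox5 window at chr6:116461179-116461428 on the minus strand.
Ptger4: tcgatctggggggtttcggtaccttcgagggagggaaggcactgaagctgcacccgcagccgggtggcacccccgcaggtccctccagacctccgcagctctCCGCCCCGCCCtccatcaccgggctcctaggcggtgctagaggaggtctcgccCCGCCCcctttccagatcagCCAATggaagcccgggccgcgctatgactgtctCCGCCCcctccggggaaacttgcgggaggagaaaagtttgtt
Lta4h: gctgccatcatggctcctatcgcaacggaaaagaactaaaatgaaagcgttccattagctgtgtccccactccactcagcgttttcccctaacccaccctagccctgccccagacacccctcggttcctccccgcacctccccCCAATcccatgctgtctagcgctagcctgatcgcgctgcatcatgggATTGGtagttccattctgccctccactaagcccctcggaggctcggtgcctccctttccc
Alox5: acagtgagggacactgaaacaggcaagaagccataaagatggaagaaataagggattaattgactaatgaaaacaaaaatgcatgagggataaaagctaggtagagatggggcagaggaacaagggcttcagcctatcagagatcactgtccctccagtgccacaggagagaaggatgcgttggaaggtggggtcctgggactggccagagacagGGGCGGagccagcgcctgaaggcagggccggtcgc

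The Ptger4 window held 4 GC boxes, all on the opposite strand and a pair of them sharing a base, together with 1 CCAAT box. The Lta4h window held 2 CCAAT boxes and no GC box, and the Alox5 window held 1 GC box and no CCAAT box. Among 32851 RefSeq promoter windows of the same length, 32.7% held a GC box and 33.8% a CCAAT box. The letters TATAAA, present in 12.4% of these windows, were found in none of the 5 member windows. G and C made up 66.8% of the Ptger4 window, 58.8% of the Lta4h window and 52.8% of the Alox5 window. These matches describe the letters of the windows only.

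The enzyme that opens the leukotriene pathway was close to undetected. Alox5 (ENSMUSG00000025701; chromosome 6, 116410071 to 116461178, GRCm38) was listed at 0 TPM in all 3 GC pools and in naive pool 1. It was at 0.110 TPM in naive pool 2 and 0.168 TPM in naive pool 3. With the depth of these pools, those values are worth about 3.41 and 3.35 reads on its longest annotated coding transcript of 2821 bases. Alox5 did not reach the minimum for testing, which was 1 TPM in at least 3 pools, and in a limma fit without that minimum its adjusted p was 0.197. Its locus also overlaps a long noncoding RNA gene, Gm38880.

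Alox5ap, the partner of 5-lipoxygenase, was the member with the widest separation, and it was less steady among the naive pools than Lta4h and Ptger4, the other members above 10 TPM there. Alox5ap (ENSMUSG00000060063; chromosome 5, 149265004 to 149288153, GRCm38) was at 43.4, 140.8 and 78.5 TPM in naive pools 1, 2 and 3. It was listed at 0 TPM in GC pools 1 and 3 and reached 0.817 TPM in GC pool 2. Every naive pool was thus far above every GC pool, and the naive pools differed widely among themselves. The difference was -6.02 on the log2(TPM + 1) scale (GC minus naive), the contrast for which the gene was chosen. With 0.1 or 0.01 added to the TPM in place of 1, it was -8.55 or -10.81, so its size depends on that choice. Alox5ap passed the minimum for testing only through the naive pools.

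The spread of Alox5ap among the naive pools was unusual for its level. Its coefficient of variation was 56.4%, against a median of 6.54% among the 2708 genes whose naive mean lay within a factor of 2 of its own, and it exceeded 98.1% of them. Naive pool 2, the pool with the highest Alox5ap value, was also the deepest, at about 16150000 reads, and the part of depth in this spread was not tested. For Lta4h the naive coefficient of variation was 2.06%, and for Ptger4 it was 4.67%.

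The annotation of Alox5ap includes a very short transcript, which bears on what its values stand for. GENCODE vM1 lists 3 transcripts, of 125, 504 and 852 bases. At a mean fragment length of 180 bases (SD 50), the transcript of 125 bases has an effective length of only 3.55 bases, against 325 and 673 bases for the others. A single read assigned to it would therefore be worth about 23.9, 17.5 and 28.9 FPKM in naive pools 1, 2 and 3. The deposited values of 32.1, 102.9 and 60.8 FPKM would stand for about 1.34, 5.89 and 2.10 reads if all of them lay on this transcript. On the transcript of 852 bases, the same values would stand for about 255, 1118 and 399 reads. The deposited table gives 1 value per gene, so the share of each transcript is unknown, and whether the short transcript carries the naive signal was not tested.

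**Figure D2:**
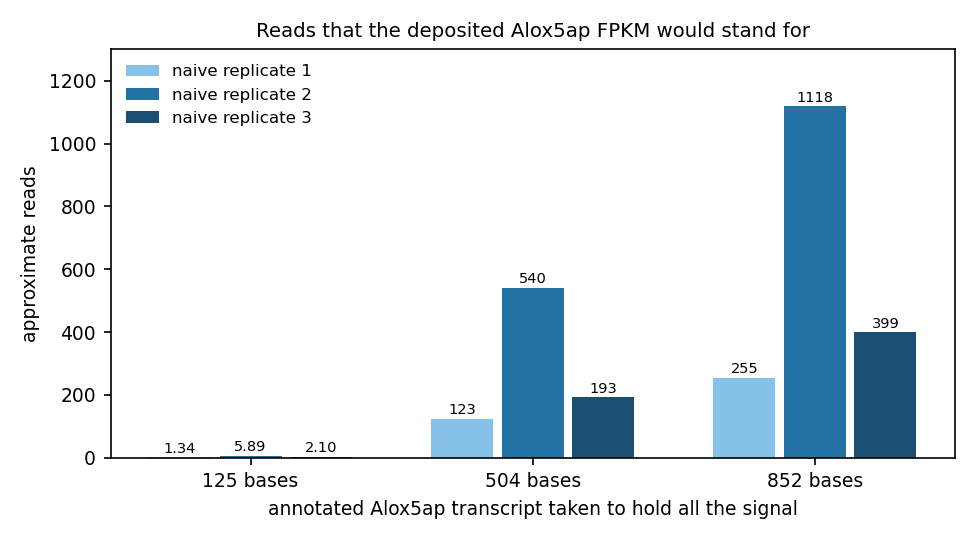
Approximate number of reads (vertical axis) behind the Alox5ap FPKM of the 3 naive pools, if all signal lay on 1 of the 3 annotated transcripts (horizontal axis, length in bases). The same values stand for 1.34 to 5.89 reads on the shortest transcript and for 255 to 1118 reads on the longest.

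In GC pool 2, the only GC pool with Alox5ap above 0, the value of 0.59 FPKM is far below 1 read on the short transcript (28.1 FPKM) and would be about 3.99 reads on the longest. Genes with such a short transcript varied widely as a group. Among genes with a naive mean within a factor of 2 of that of Alox5ap, the 66 with an annotated transcript under 150 bases, Alox5ap included, had a median coefficient of variation of 66.1%. It was 6.38% for the 2545 genes whose transcripts were all of 150 bases or more. The 66 include genes with no longer transcript, such as SNORA61. They were not split by whether longer transcripts were also annotated, as for Alox5ap. None of the other 5 members, and none of the 74 other pathway genes described below, had a transcript under 150 bases.

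**Figure D3:**
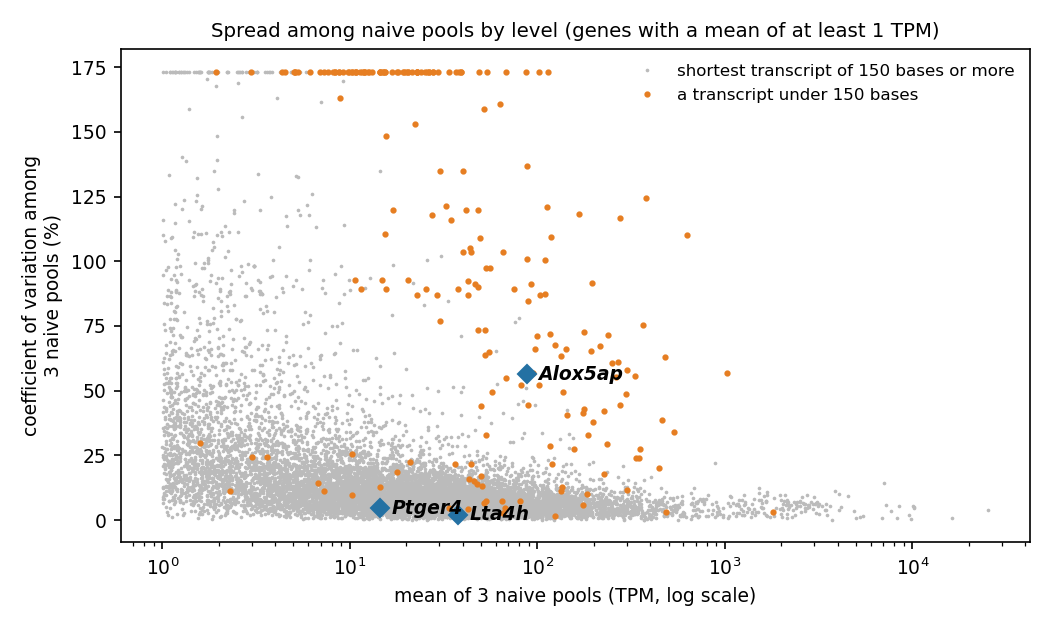
Coefficient of variation among the 3 naive pools (vertical axis, %) against the mean level (horizontal axis, TPM on a log scale) for genes with a naive mean of at least 1 TPM. Orange points are genes with an annotated transcript under 150 bases and grey points the other genes with a known length. Alox5ap lies at 56.4% among the orange points, and Lta4h and Ptger4 lie at 2.06% and 4.67% within the grey cloud.

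Lta4h, the hydrolase that makes leukotriene B4, was expressed at nearly the same level in both populations. Lta4h (ENSMUSG00000015889; chromosome 10, 93453396 to 93484896, GRCm38) was at 46.2, 40.4 and 41.2 TPM in GC pools 1, 2 and 3. In naive pools 1, 2 and 3 it was at 38.2, 37.0 and 38.4 TPM. The GC pools lay just above the naive pools without overlap, a ratio of means of 1.12. The log2 fold change was 0.16 (SE 0.07, 95% interval -0.00 to 0.33) on the log2(TPM + 1) scale, and the gene was not called (adjusted p = 0.0759 in limma).

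Ltc4s, which makes leukotriene C4, was weakly expressed. Ltc4s (ENSMUSG00000020377; chromosome 11, 50236461 to 50238532, GRCm38) was at 3.91, 2.39 and 2.08 TPM in GC pools 1, 2 and 3, and at 1.89, 1.12 and 0 TPM in naive pools 1, 2 and 3. No naive pool reached the lowest GC pool, but the values rest on few reads, between 4.51 and 16.7 in the GC pools and between 0 and 8.87 in the naive pools, depending on the transcript. The log2 fold change was 1.02 (SE 0.41, 95% interval 0.02 to 2.02), and the gene was not called over all genes (adjusted p = 0.0676 in limma). Ltc4s was called without naive pool 1 (log2 fold change 1.35, adjusted p = 0.0288 in limma) and with the replicate number as a block (1.02, adjusted p = 0.021). Without naive pool 3, where it was listed at 0, the log2 fold change was 0.59 (adjusted p = 0.114). Its side of the threshold thus depends on these choices.

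Ptger4, the EP4 receptor, was lower in GC B cells. Ptger4 (ENSMUSG00000039942; chromosome 15, 5233399 to 5244187, GRCm38) was at 14.99, 13.7 and 14.8 TPM in naive pools 1, 2 and 3. In GC pools 1, 2 and 3 it was at 1.01, 1.76 and 2.02 TPM. The naive mean was 9.09 times the GC mean, and the populations did not overlap. The log2 fold change was -2.60 (SE 0.17, 95% interval -3.01 to -2.19) with an adjusted p of 2.6e-05 in limma. Its values rest on about 24.7 to 52.3 reads in the GC pools and 344.7 to 581.8 reads in the naive pools. Epithelial cells of the gut can express this receptor, and the summed level of 8 epithelial markers was also higher in naive pools (121.5 to 156 TPM) than in GC pools (48.8 to 110.7 TPM), a part in the result that was not tested.

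Ptger2, the EP2 receptor, followed the same order at a much lower level. Ptger2 (ENSMUSG00000037759; chromosome 14, 44988111 to 45003820, GRCm38) was at 0.689, 0.411 and 0.710 TPM in naive pools 1, 2 and 3. It was at 0.248, 0.235 and 0.0836 TPM in GC pools 1, 2 and 3. The populations did not overlap, although no pool reached 1 TPM, so the gene was not in the main test. The values correspond to about 17.0 to 21.1 reads in naive pools and 2.11 to 6.91 reads in GC pools. In the limma fit without a minimum, the log2 fold change was -0.43 (adjusted p = 0.0233), in a fit that called 41.4% of the 20845 genes.

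In all, 4 of the 6 members passed the minimum for testing, Alox5ap through the naive pools and Ltc4s through the GC pools, and 1 of the 3 that could be tested, Ptger4, was called. Over all genes, 65.6% of the 12785 tested were called between GC and naive B cells, 35.5% higher and 30.1% lower in GC B cells, so a called difference is the usual outcome in this comparison. By Euclidean distance between log2(TPM + 1) profiles over the 6 pools, the genes close to Ptger4 included Gpr65 (0.57) and Nrarp (0.58). The genes most like Lta4h were Nop2 (0.14), Pus1 (0.15) and Thoc5 (0.15), and those most like Ltc4s were Gm11800 (0.59), Cldn12 (0.73) and Cth (0.74). Alox5ap had no close match. Its nearest genes were Plaur, at a distance of 1.5, SNORA61 (1.70) and Pydc4 (1.77). Plaur was at 85.8, 85.3 and 68.8 TPM in the naive pools, without the spread of Alox5ap, while SNORA61, a short RNA of 126 bases, was at 48.6, 71.9 and 168.8 TPM there.

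The rest of the pathway was examined with 9 lists that held 75 further genes, of which 74 had a row and 38 were tested. Of these 38, 18 were higher in GC B cells, 9 were lower and 11 were not called, which is 71.1% called against 65.6% over all genes. Pla2g4c, Mgll, Mgst1, Cysltr1, Cysltr2 and Ptgr1 reached the minimum in every pool of only 1 population, the one in which they were higher, and all 6 were called. Among the other 32 genes 21 were called, or 65.6%, against 63.8% of the other genes over the whole table. These shares are close to the background, so the counts by list below are a description and no result about a list. The median log2 fold change was 0.26 in these lists and 0.03 over all genes tested. The list median still includes those 6 genes, all but Mgst1 higher in GC B cells. It was not taken without them, so it shows no shift of the lists. The plot of tested pathway genes gives each gene with its interval.

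**Figure D4:**
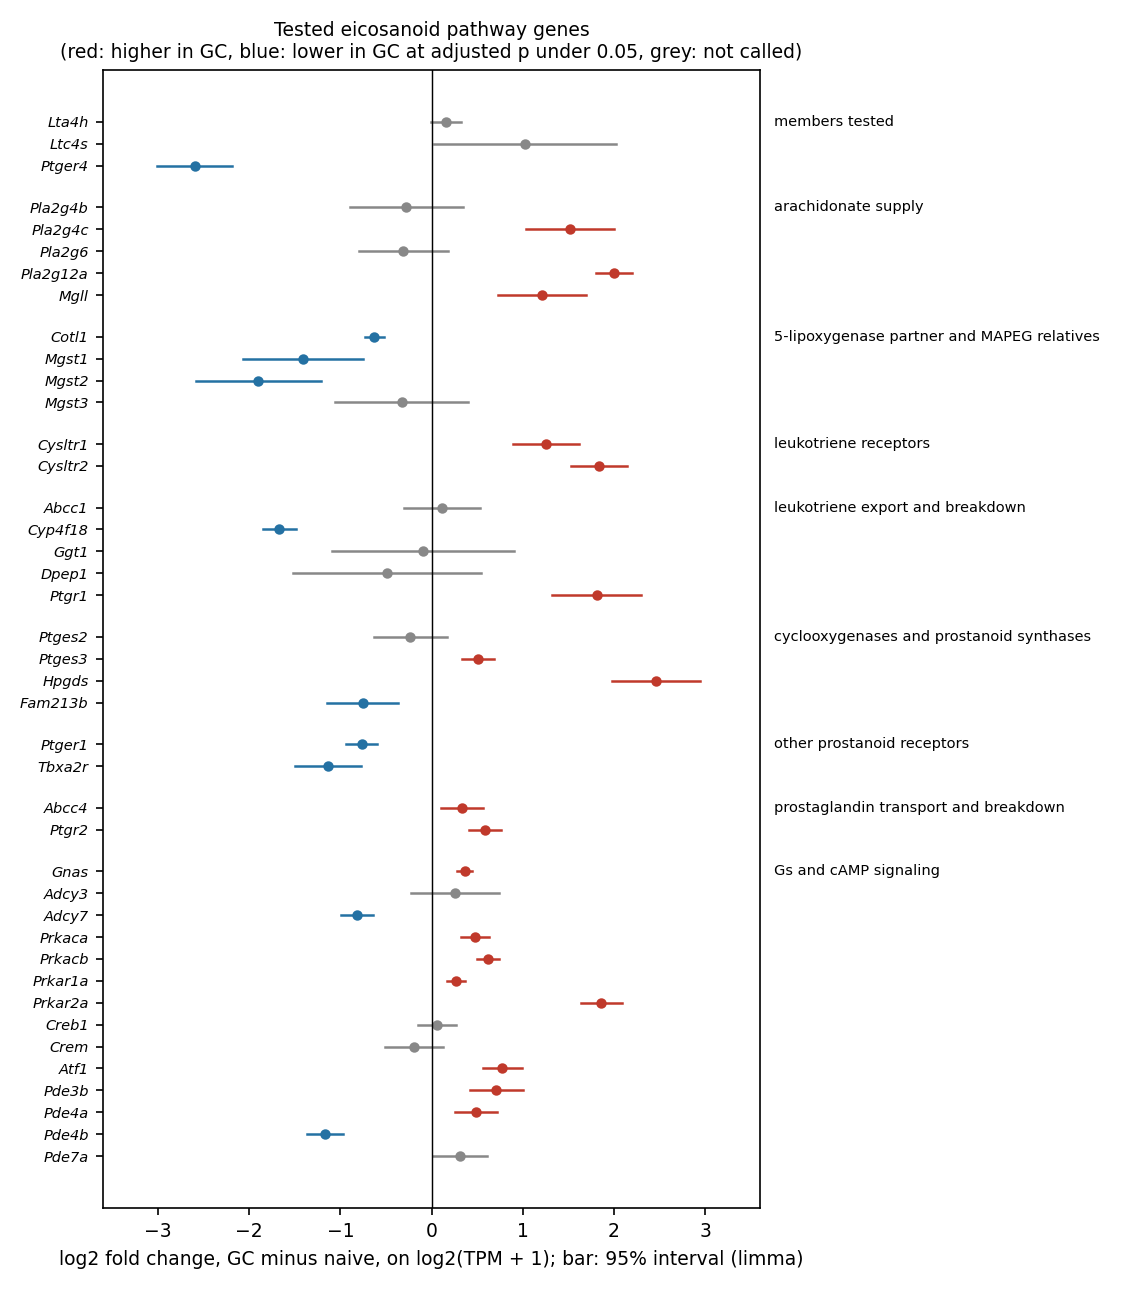
Log2 fold change between GC and naive B cells on the log2(TPM + 1) scale (horizontal axis) for the tested members apart from Alox5ap and the 38 tested genes of the 9 lists, with 95% intervals from limma. Genes higher in GC B cells at an adjusted p under 0.05 are red (18 listed genes), lower ones blue (Ptger4 and 9 listed genes), and those not called grey.

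Among genes that supply arachidonic acid, 3 of the 5 tested rose in GC B cells and none fell. Pla2g12a, a secreted phospholipase A2, was at 34.5 ± 1.56 TPM in the GC pools against 7.87 ± 0.536 TPM in the naive pools (SD, n = 3; log2 fold change 2.0, adjusted p = 2.9e-06 in limma). Pla2g4c, a cytosolic phospholipase A2, and Mgll, a monoacylglycerol lipase, rose by 1.52 and 1.21 on the same scale (adjusted p = 0.000648 and 0.0019). Both passed the minimum through the GC pools, so their calls add little to this count, and 60% of the list was called against 65.6% over all genes. Pla2g4a, the phospholipase best known for feeding 5-lipoxygenase, stayed below the minimum, with 0.0696 ± 0.0776 TPM in the GC pools against 0.987 ± 0.314 TPM in the naive pools (SD, n = 3). No other lipoxygenase of the 6 listed reached the minimum, and Alox15 and Alox12b were listed at 0 in all 6 pools.

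Of 4 relatives and partners of the leukotriene enzymes tested, 3 fell in GC B cells, none rose, and Mgst3 was not called (log2 fold change -0.33, adjusted p = 0.371 in limma), which is 75% called against 65.6% over all genes. Cotl1, an actin-binding protein that also binds 5-lipoxygenase, was abundant in both populations, with 526.7 ± 21.0 TPM in the GC pools against 813.4 ± 14.0 TPM in the naive pools (SD, n = 3; log2 fold change -0.63, adjusted p = 2.8e-05 in limma). Mgst2 and Mgst1, microsomal glutathione transferases of the same protein family as FLAP and leukotriene C4 synthase, had log2 fold changes of -1.90 and -1.41 (adjusted p = 0.00117 and 0.00383), and Mgst1 passed the minimum through the naive pools. Mgst2 was at 4.63 ± 1.91 TPM in the GC pools against 19.4 ± 3.61 TPM in the naive pools (SD, n = 3).

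The receptors for cysteinyl leukotrienes were the ones detected among leukotriene receptors, at low levels and in GC B cells. Cysltr2 was at 2.48, 2.81 and 2.62 TPM in GC pools 1, 2 and 3, was listed at 0 in naive pools 1 and 3, and was at 0.0547 TPM in naive pool 2 (log2 fold change 1.84, adjusted p = 3.2e-05 in limma). Cysltr1 was at 1.77 ± 0.261 TPM in the GC pools against 0.162 ± 0.111 TPM in the naive pools (SD, n = 3; 1.25, adjusted p = 0.000427). Both passed the minimum only through the GC pools, so their calls carry little weight as a count. The leukotriene B4 receptors Ltb4r1 and Ltb4r2 stayed under 0.3 TPM in each pool, and Oxgr1 was listed at 0.

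Of 5 genes of leukotriene export and breakdown tested, 1 rose, 1 fell and 3 (Abcc1, Ggt1 and Dpep1) were not called, which is 40% called against 65.6% over all genes. Cyp4f18, which inactivates leukotriene B4 in mouse leukocytes, fell from 180.7 ± 9.90 TPM in naive to 56.3 ± 4.96 TPM in GC B cells (SD, n = 3; log2 fold change -1.67, adjusted p = 5.1e-06 in limma). Ptgr1, an enzyme that acts on leukotriene B4 and prostaglandins, rose from 0.867 ± 0.387 to 5.48 ± 0.896 TPM (SD, n = 3; 1.81, adjusted p = 0.000292), and passed the minimum through the GC pools. Abcc1, the exporter of leukotriene C4, was not called, with 13.2 ± 3.22 TPM in the GC pools against 11.9 ± 0.675 TPM in the naive pools (SD, n = 3; 95% interval of the log2 fold change -0.31 to 0.53).

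On the prostaglandin side, the cyclooxygenases that begin the pathway were close to 0. Ptgs2 was listed at 0 in all 6 pools, and Ptgs1 was listed at 0 in the GC pools and did not reach 0.5 TPM in any naive pool. Downstream synthases were present nonetheless, and of 4 tested in this list, 2 rose, 1 fell and 1 was not called, which is 75% called against 65.6% over all genes. Hpgds, which makes prostaglandin D2, was at 30.4, 38.3 and 33.5 TPM in GC pools 1, 2 and 3 and at 4.32, 7.57 and 4.58 TPM in naive pools 1, 2 and 3. Its log2 fold change was 2.46 (SE 0.20, adjusted p = 7.1e-05 in limma). Ptges3, a cochaperone also described as a prostaglandin E synthase, was at 137 ± 11.7 TPM in the GC pools against 96.0 ± 3.79 TPM in the naive pools (SD, n = 3; 0.51, adjusted p = 0.00104). Ptges2 was not called, at 9.12 ± 1.56 and 10.9 ± 1.92 TPM (SD, n = 3).

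Of the 7 other prostanoid receptors, 2 were tested and both fell in GC B cells, where 30.1% of all genes tested were lower. Ptger1, the EP1 receptor, was at 47.4 ± 1.57 TPM in the GC pools against 81.5 ± 6.46 TPM in the naive pools (SD, n = 3; log2 fold change -0.77, adjusted p = 0.000126 in limma). The library kit is not stated to keep the strand, and reads at this locus may not all be its own. Tbxa2r, the thromboxane receptor, was at 2.80 ± 0.421 TPM in the GC pools against 7.38 ± 1.21 TPM in the naive pools (SD, n = 3; -1.14, adjusted p = 0.00068). Ptger3 was listed at 0 in all 6 pools. In the list of transport and breakdown, Ptgr2, which reduces prostaglandin metabolites, and Abcc4, which exports prostaglandins, rose by 0.59 and 0.34 (adjusted p = 0.000524 and 0.0192 in limma).

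The cAMP machinery that EP2 and EP4 engage was expressed in both populations. Of 14 genes tested in this list, 8 rose in GC B cells, 2 fell and 4 were not called, which is 71.4% called against 65.6% over all genes. Gnas, the Gs alpha subunit, was at 800.2 ± 13.3 TPM in the GC pools against 622.5 ± 7.80 TPM in the naive pools (SD, n = 3; log2 fold change 0.36, adjusted p = 0.00012 in limma). Adcy7, the adenylyl cyclase with the highest level, was lower in GC B cells, at 49.0 ± 0.448 against 87.3 ± 7.81 TPM (SD, n = 3; -0.82, adjusted p = 0.000111), and its locus overlaps another gene, from which its reads may not be separable. Pde4b, a phosphodiesterase that degrades cAMP, was also lower, at 21.4 ± 1.48 against 49.3 ± 3.37 TPM (SD, n = 3; -1.17, adjusted p = 3.2e-05). Prkar2a, a regulatory subunit of protein kinase A, had the largest increase in this list, from 3.58 ± 0.248 to 15.6 ± 0.803 TPM (SD, n = 3; 1.86, adjusted p = 8e-06). Prkaca, Prkacb, Prkar1a, Atf1, Pde3b and Pde4a rose by between 0.27 and 0.78, while Creb1, Crem and Pde7a were not called.

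Markers were read to see which cells the pools held. Fas was at 114 ± 5.55 TPM in the GC pools against 3.22 ± 0.314 TPM in the naive pools (SD, n = 3), the direction of the sort. The 6 B cell markers summed to 4349 to 4386 TPM in GC and 6483 to 6671 TPM in naive pools. The 6 GC B cell markers, Fas among them, summed to 1353 to 1388 and 52.12 to 57.95 TPM. For the 6 naive B cell markers the sums were 110 to 121.1 and 1630 to 1729 TPM. The cells best known for leukotriene synthesis left few traces. Summed over 8 neutrophil markers, the level was between 0 and 1.24 TPM in each GC pool and between 0.149 and 0.491 TPM in each naive pool, with Csf3r highest in the naive mean and Camp in naive pool 3, and with S100a8, S100a9, Ly6g, Elane and Ngp listed at 0 in all 6 pools. Of 10 mast cell, basophil and eosinophil markers, 5 (Cpa3, Mcpt4, Ms4a2, Fcer1a and Tpsb2) were listed at 0 throughout, and the list summed to 4.26 to 8.38 TPM in GC and 1.49 to 1.78 TPM in naive pools. Prg2 made up most of the sum in the GC pools, while Hdc was higher in each naive pool (0.634, 0.274 and 0.181 TPM) than in any GC pool (0, 0 and 0.125 TPM), the direction of Alox5ap. Macrophage and dendritic cell markers summed to 46.0 to 50.8 TPM in GC, largely Flt3 and Cd68, and to 12.0 to 16.6 TPM in naive pools. Of these 9 markers, 5 had a higher mean in naive pools, the direction of Alox5ap, among them Lyz2 (3.29 ± 1.73 against 1.28 ± 0.716 TPM), Itgam (1.02 ± 0.186 against 0.106 ± 0.0623 TPM) and Emr1 (0.696 ± 0.0860 against 0.0461 ± 0.0799 TPM; SD, n = 3 for each). T cell markers summed to 1.97 to 4.06 TPM in GC and 1.81 to 2.63 TPM in naive pools, with Cd3g highest in the naive mean and Cd4 highest in naive pools 1 and 3.

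Of the epithelial markers, 7 of 8 had a higher mean in naive pools, led by Fabp2, Krt8, Krt20, Vil1 and Epcam. GC pool 2 had the highest sum of the GC pools (110.7 TPM, against 48.8 and 49.0 TPM) and is also the GC pool in which Alox5ap was above 0. Naive pool 1, with the highest epithelial sum of all pools (156 TPM), had the lowest Alox5ap value of the naive pools. Tuft cells are epithelial cells known to make leukotrienes, and their 6 markers summed to 8.35 to 9.41 TPM in GC and 2.08 to 2.38 TPM in naive pools, mostly Trpm5 and Sh2d6, with Il25 listed at 0 in all 6 pools. Stromal and endothelial markers summed to 22.6 to 24.7 TPM in GC and 122.1 to 132.5 TPM in naive pools, almost all from Pecam1, and plasma cell markers to 130.6 to 135.1 and 191.9 to 212 TPM, mostly Xbp1 and Irf4, with Prdm1 at about 5 TPM in GC pools. The part of these cells in the results was not tested.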

How the data were processed

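RNA-Seq was analyzed from 3 GC and 3 naive B cell pools. Per the study's methods, the authors trimmed reads with cutadapt 1.9, quantified them on the mouse transcriptome NCBIm38 v75 (GRCm38) with RSEM 1.2.25, fragment length 180 (SD 50), and deposited FPKM per gene, rounded to 2 decimals. The submitters' notes also name edgeR, with no role given. The FPKM of a gene sums over its transcripts and depends on their effective lengths.

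FPKM was rescaled to 1000000 per pool (TPM). Depth was estimated at 9750000 to 16150000 reads from the step size of low values in single-transcript genes. Between 62.8% and 69.1% of those values lay within 0.1 of a whole read, so depth is approximate and no count test was run. Effective lengths used GENCODE vM1 transcript lengths (build NCBIM37, no coordinates taken), which may differ from the authors' annotation. Read equivalents cover counting only. Positions and promoters came from RefSeq GRCm38.p6.

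The test was limma-trend (limma 3.58.1, R 4.3.3) on log2(TPM + 1), a scale that understates changes of low genes, for the 12785 genes that reached 1 TPM in 3 or more pools, with Benjamini-Hochberg adjustment over all of them and a threshold of 0.05. The fit was tested on simulated data. Symbols named 33398 of 39179 identifiers, and 1 listed gene (Pde4d) matched several identifiers and was left out. The members and lists were chosen with earlier results of these data known, and the tuft cell markers were added last. Pathway genes are named if they reached a mean of 10 TPM in either population, or were called with an absolute log2 fold change of at least 1. Markers are named if highest in their list in naive pools or at 5 TPM in either population. Others were named after their values were seen. Many of these are at or near 0 TPM, but Mgst3, Ggt1, Dpep1, Lyz2 and Itgam are higher. Some items that these rules select are not reported here. Alternatives changed the pseudocount, filter, scaling and pools. Python 3.11.15 with pandas 2.3.3 and matplotlib 3.10.9 was used for other steps.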

Additional observations from a re-analysis of the deposited data

How the results depend on the processing

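The alternatives numbered 99 over 9 results, which are the 6 member differences and 3 counts of genes. No alternative turned the direction of a member's difference. For Alox5 and Ptger2 the 1 alternative repeats the main value, so it could not. Changes of filter and the replicate block also leave the estimates of the other members unchanged. Among Lta4h, Ltc4s and Ptger4, the members with a test, only Ltc4s changed its side of the threshold, in 2 of its 13 alternatives. Ptger4 was called in all 14 of its alternatives, with log2 fold changes from -3.24 to -2.42 and adjusted p between 2.2e-05 and 0.000416 in limma. Lta4h stayed above 0 and was not called in any of 14, from 0.07 to 0.20 (adjusted p 0.0694 to 0.436 in limma). The difference in Alox5ap grew to -8.55 with a pseudocount of 0.1 and to -10.81 with 0.01, since 2 of its GC pools are listed at 0. Ltc4s, with a naive pool at 0, likewise moved to 2.16 (adjusted p = 0.134 in limma) and 3.28 (adjusted p = 0.193), and was not called. Leaving out each pool in turn gave between -6.44 and -5.61 for Alox5ap and between 0.59 and 1.35 for Ltc4s, which among these was called only without naive pool 1. Of all called genes 54.1% were higher in GC B cells, against 50.6% with FPKM as deposited and 47.8% with quantile normalization, where more genes were lower (4450) than higher (4080). Between 6879 and 8639 genes were called over all, and 13 to 20 pathway genes were higher and 8 to 11 lower in GC B cells. With a mean of at least 5 TPM required, Ltc4s was not tested, and Alox5 and Ptger2 could be fitted only without a filter (adjusted p = 0.197 and 0.0233 in limma).

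Pools with the same number correlated in their deviations from the population means by 0.0830, 0.0225 and 0.0456 across genes. Of the pairs with different numbers, naive pool 2 with GC pool 3 was at 0.0298. The others lay between -0.0746 and -0.0076. Correlations this small do not settle whether the pools are paired. The number was not used to pair the pools in the main test, and the sources used here do not say whether equally numbered pools share animals. With the replicate number as a block, Ltc4s was called (log2 fold change 1.02, adjusted p = 0.021 in limma) and 7960 genes were called instead of 8392, with no change of call in Lta4h or Ptger4. Alox5, Ltc4s and Ptger2 rest on few reads.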
